A study of Xiphophorus maculatus x Xiphophorus hellerii with 32 samples.

Results

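Melanoma was compared with skin in hybrid fish whose sample titles all begin with the number 11949. Of the 32 libraries of the study, 16 carry this number, 8 from spontaneous melanoma (fish a, b, c, d, f, g, h and l) and 8 from skin (fish a, b, c, f, g, h, l and q). The libraries were taken by title alone and no measured value was used. Both tissues were sequenced in 7 fish, while the tumor of 11949d and the skin of 11949q have no partner. All donors were melanoma-bearing first-generation backcross animals, 9 months old, from crosses of swordtail (X. hellerii) with platyfish (X. maculatus). The skin therefore came from tumor-bearing hybrids as well, and no tumor-free animal enters the comparison. The sources used here do not give sex, tumor stage or the body site of the skin, nor what the shared number stands for. The values are raw counts of reads per transcript model, given below as counts per 1000000 (CPM) scaled by the trimmed mean of M-values (TMM), which corrects for composition. A log2 fold change is melanoma over skin, and SE is its standard error.

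The Gordon-Kosswig cross is a classical genetic model of melanoma. Xmrk, an oncogenic duplicate of the gene for the epidermal growth factor receptor, is carried on a platyfish chromosome and encodes a receptor tyrosine kinase that signals without ligand. Platyfish keep it in check with a regulator at another locus. Backcrossing to the swordtail separates Xmrk from that regulator, and the large black pigment cells of hybrids that inherit Xmrk without it can form malignant melanoma. The receptor acts through the Ras and MAP kinase cascade, phosphatidylinositol kinase and STAT factors.

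Total counts lay between 2578877 and 5933067 in melanoma and between 4239036 and 6587451 in skin. The lowest belonged to the tumor of 11949f, and the next lowest tumor had 4938279. The 10 most abundant transcripts of a library took 7.68% to 21.4% of its counts in melanoma and 9.82% to 17.6% in skin. The highest share in both tissues was that of 11949l, and the next highest melanoma, 11949f, had 10.2%. The tumor of 11949c was the highest or the lowest of the 8 tumors for 42.2% of transcripts, and the skin of 11949a was the highest or lowest of the 8 skins for 37.6%. The other 14 libraries held an extreme for 17.3% to 29.2%. Skin and pigment cell markers were not checked, because 30 of the 20499 rows carry a gene symbol, the remaining rows carry transcript identifiers that the file does not pair with names, and no marker of either tissue is among the symbols. In tissue RNA of this kind, fewer cells of a type and less RNA per cell cannot be told apart.

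Xmrk was higher in every melanoma than in any skin. Its level was 352 CPM in the lowest melanoma, 554 CPM at the median and 1114 CPM in the highest, against 25.4, 51.7 and 86.3 CPM at the same ranks in skin. The tissues did not overlap, and every skin library held at least 105 Xmrk counts. The fold within a fish was 4.39 in 11949c, 7.91 in 11949a, 8.47 in 11949b, 8.60 in 11949f, 10.9 in 11949g, 20.8 in 11949h and 21.0 in 11949l. The last 2 fish had nearly the same fold from different levels. In 11949h the melanoma was the highest of all at 1114 CPM with 53.1 CPM in its skin, and in 11949l a melanoma of 542 CPM stood beside the lowest skin, 25.4 CPM. The unpaired tumor of 11949d had 769 CPM and the unpaired skin of 11949q 49.4 CPM, both inside the range of their tissue. The quasi-likelihood test of edgeR over all transcripts, with p adjusted by Benjamini and Hochberg, gave a log2 fold change of 3.45 (SE 0.31, adjusted p = 5.41e-07, n = 8 libraries per tissue). This fit leaves out the pairing by fish. With the fish as a block, which compares the 2 libraries of a fish with each other, it was 3.38 (SE 0.30, edgeR adjusted p = 4.22e-05). The sources used here do not say how reads were shared out between Xmrk and the receptor gene it was copied from.

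**Figure D1:**
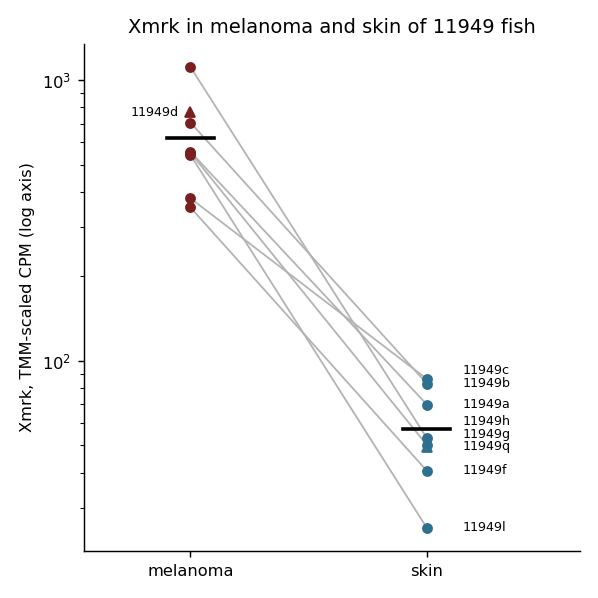
Xmrk in TMM-scaled CPM on a log axis for each melanoma and skin library of 11949, with gray lines joining the 2 tissues of a fish, triangles for the 2 unpaired libraries and black bars for the means of 8 libraries. All melanomas lie at 352 CPM or more and all skins at 86.3 CPM or less, and the line of 11949c is the least steep.

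Across the transcriptome, 1822 of 14313 tested transcripts (12.7%) passed an adjusted p of 0.05 in edgeR without a term for the fish. Of these, 849 (5.93% of those tested) rose in melanoma and 973 (6.8%) fell. The rises were the larger at the far end, since 137 rose and 91 fell at least 8-fold, and 28 rose and 14 fell at least 32-fold by the fitted change. All 7 pairs moved in the direction of the fitted change for 1569 of the calls, 6 pairs for 236, and fewer than 5 pairs for 1. Over all tested transcripts, 24.4% moved the same way in all 7 pairs. The calls were made in these same libraries, so their agreement between pairs was largely given by the choice. The 8 melanomas and the 8 skins did not overlap for 302 transcripts higher and 186 lower in melanoma, together 3.41% of those tested. A call was more frequent among abundant transcripts, at 19.1% in the top of 4 equal classes of mean CPM (42.7 CPM and above) and 9.95% in the bottom class (up to 7.38 CPM).

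More transcripts passed when the 2 libraries of a fish were compared with each other. With the fish as a block in the 7 pairs, 3982 of 14371 transcripts passed (27.7%), 2025 higher and 1957 lower in melanoma. The excess of large rises was smaller in this fit, where 131 rose and 109 fell at least 8-fold. At least 4-fold, 290 rose and 305 fell. In the same 14 libraries without the block 1272 passed. Of the 1818 unblocked calls tested there, 1773 passed again with the same sign and 45 did not pass. The 2193 transcripts that were tested in both fits and passed with the block alone changed less, by a median of 0.80 on the log2 scale in either direction, than the 1773 that passed in both (1.45). They also differed more between fish, with a median span of fish means of 1.99 on the log2 scale against 1.51. Over all tested transcripts the median span was 1.70. Both contrasts were largely given by how the groups were chosen, since a block takes out differences between fish.

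Among the 20 rows with a symbol that had enough counts for a test, 6 passed (30.0%, beside 12.7% of all transcripts), 3 higher and 3 lower in melanoma. The median log2 fold change of the 20 rows was 0.03, and that of all tested transcripts 0.01, a value that TMM scaling keeps near 0. The higher ones were Xmrk, GSTM3 and AP1M1, and the lower ones HSP90AB1, CHD4_2of2 and GPX6. With the fish as a block the same 6 of 20 symbols passed (30.0%), near the 27.7% of all transcripts that passed in that fit. The edgeR adjusted p with the block was 4.22e-05 for Xmrk, 7.65e-04 for AP1M1, 0.00138 for GSTM3 and 0.00408 for CHD4_2of2. It was 0.00891 for HSP90AB1 and 0.0269 for GPX6. Names that end in 1of2 or 2of2 mark copies of a gene, and their reads may have been divided with the other copy. Xmrk and HSP90AB1 were the symbols whose tissues did not overlap in TMM-scaled CPM, 2 of 20 beside 3.41% of all transcripts.

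**Figure D2:**
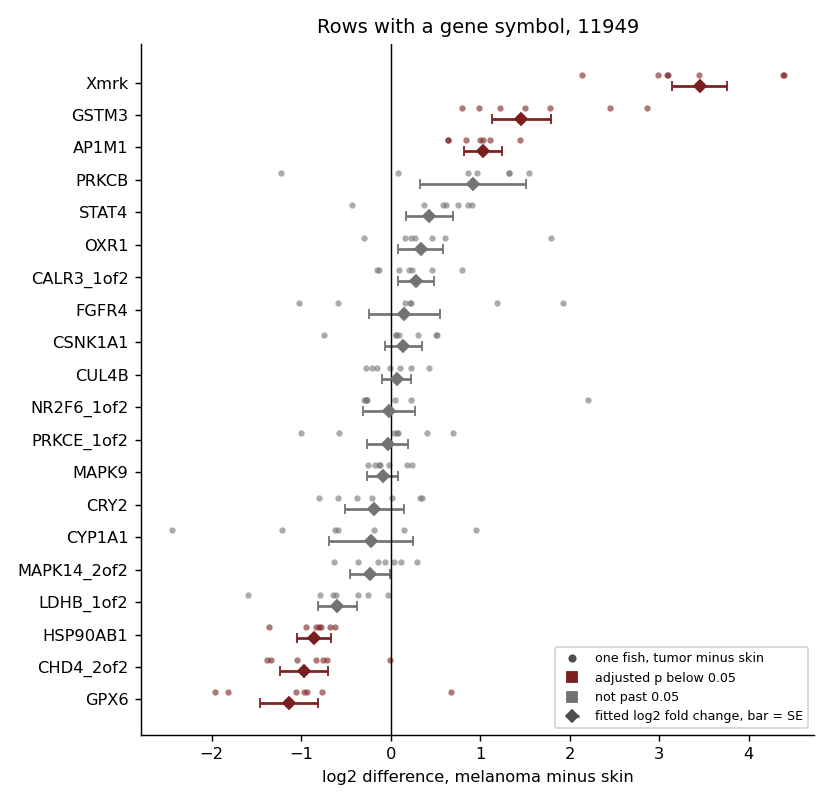
Log2 difference between melanoma and skin for the 20 tested rows with a symbol: diamonds are fitted log2 fold changes with SE over 16 libraries, dots are the 7 fish with both tissues, and red marks an adjusted p below 0.05 in edgeR. Xmrk stands apart at the top, and GSTM3 and AP1M1 have all 7 dots right of 0. HSP90AB1 and CHD4_2of2 have all 7 left of 0, while GPX6 has 6.

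Of the list for glutathione and oxidative stress, 4 of 14 genes were measured, and 1 rose, 1 fell and 2 did not pass. Over all transcripts 12.7% passed, and 4 genes are too few to set the list apart. GSTM3, a glutathione S-transferase that couples glutathione to electrophiles, had 133 CPM in the lowest melanoma, 215 CPM at the median and 347 CPM in the highest, against 35.3, 73.9 and 165 CPM in skin. The groups overlapped through the skins of 11949a (165 CPM) and 11949c (148 CPM), which lay above the melanoma of 11949l (133 CPM). GSTM3 rose 2.75-fold (log2 fold change 1.46, SE 0.33, edgeR adjusted p = 0.00582). All 7 fish had more in melanoma, by 1.74-fold in 11949a up to 7.29-fold in 11949b.

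GPX6, of the glutathione peroxidase family that reduces peroxides at the cost of glutathione, had 4.27, 6.65 and 7.49 CPM at the lowest, median and highest melanoma, against 4.29, 13.1 and 27.3 CPM in skin. The melanomas were close together and the skins were spread out. GPX6 fell by 1.14 on the log2 scale (SE 0.33, edgeR adjusted p = 0.0283) and was lower in 6 of 7 fish, 11949b going the other way with 7.05 CPM in melanoma and 4.29 CPM in skin. The call was lost on leaving out any 1 of 5 libraries, the skin of 11949g or 11949l or the tumor of 11949a, 11949d or 11949h, with adjusted p up to 0.0699 (range over all alternatives 0.00693 to 0.0699). OXR1, an oxidation resistance gene, did not pass (log2 fold change 0.33, SE 0.25, edgeR adjusted p = 0.461). The skin of 11949a held its lowest level, 14.1 CPM. CYP1A1, an oxidase of foreign compounds, did not pass either (-0.22, SE 0.47, adjusted p = 0.825), and its within-fish log2 ratios ran from -2.45 in 11949h to 0.95 in 11949f. The tumor of 11949h held 6 CYP1A1 counts.

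HSP90AB1, the constitutive cytosolic form of the chaperone HSP90, was the single measured member of the 9 genes listed for handling and heat shock. It had 3193, 4101 and 4592 CPM at the lowest, median and highest melanoma, against 5098, 6693 and 10634 CPM in skin. Every melanoma was below every skin after TMM scaling, and the highest skin was that of 11949a. Before scaling the tissues overlapped. The tumor of 11949a held 29075 of 5813901 counts, a larger share than the 23333 of 5525959 in the skin of 11949l. HSP90AB1 fell by 0.86 on the log2 scale (SE 0.19, edgeR adjusted p = 0.00507) and was lower in 7 of 7 fish. CALR3_1of2, a copy related to the calcium-binding chaperone calreticulin, did not pass (0.28, SE 0.20, edgeR adjusted p = 0.427). In 5 of 7 fish it was higher in melanoma, most so in 11949c.

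AP1M1, a subunit of the clathrin adaptor that sorts cargo at the trans-Golgi network, rose 2.05-fold (log2 fold change 1.03, SE 0.21, edgeR adjusted p = 0.00293). Its levels were 35.8, 53.7 and 74.5 CPM at the lowest, median and highest melanoma, against 19.3, 22.6 and 41.3 CPM in skin. It was higher in the melanoma of all 7 fish, by 1.56-fold to 2.73-fold. The groups overlapped through 11949a and 11949c, whose skins had 37.4 and 41.3 CPM. In 11949c AP1M1 was the highest of its tissue on both sides.

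The list for chromatin and nuclear regulators had 4 of 11 genes measured, of which 1 fell and 3 did not pass. Here too the share over all transcripts was 12.7%, and 4 genes are too few to set the list apart. CHD4_2of2, whose product is the motor of a chromatin remodelling and deacetylase complex, had 24.8, 46.1 and 78.6 CPM at the lowest, median and highest melanoma, against 54.0, 98.7 and 129 CPM in skin. It fell by 0.97 on the log2 scale (SE 0.27, edgeR adjusted p = 0.0227) and was lower in 7 of 7 fish after TMM scaling. In 11949a the fall was 0.01 only, with 53.5 CPM in melanoma and 54.0 CPM in skin. Before scaling this fish went the other way. Its tumor held 377 of 5813901 counts, a larger share than the 169 of 4239036 in its skin. In the 14 paired libraries without a block the adjusted p of CHD4_2of2 was 0.0891, the highest over the alternatives, which began at 0.00408. The clock repressor CRY2 (-0.18, SE 0.33), the ubiquitin ligase scaffold CUL4B (0.07, SE 0.16) and the orphan nuclear receptor NR2F6_1of2 (-0.02, SE 0.29) did not pass in edgeR. The NR2F6_1of2 estimate is not distinguishable from 0 and changed sign with the setting.

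None of the 5 measured genes of the 8 listed protein kinases passed in edgeR, with or without the block. Of all transcripts 12.7% passed without the block and 27.7% with it, so 5 genes are too few to set the list apart. PRKCB, the beta isoform of protein kinase C, had 0.58, 6.69 and 23.9 CPM at the lowest, median and highest melanoma, against 1.60, 4.62 and 8.58 CPM in skin. Its log2 fold change was 0.92 (SE 0.59, edgeR adjusted p = 0.369, and 0.0583 with the fish as a block), and it was higher in the melanoma of 6 of 7 fish. The fish kept their order between the tissues to a large extent. 11949a, 11949b and 11949c had the 3 lowest skins, 1.60 to 2.38 CPM, and 11949f and 11949h the 2 highest in both melanoma (15.9 and 23.9 CPM) and skin (8.58 and 7.99 CPM). The low values rest on few counts, 5, 15 and 8 in the skins of 11949a, 11949b and 11949c and 3 in the melanoma of 11949c. The stress-activated kinases MAPK9 (-0.09, SE 0.17) and MAPK14_2of2 (-0.23, SE 0.23), PRKCE_1of2 (-0.04, SE 0.23) and casein kinase CSNK1A1 (0.14, SE 0.20) had log2 fold changes about as large as their SE or smaller. CSNK1A1 was 513 CPM in the skin of 11949a, where the next highest skin had 333 CPM.

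FGFR4, a fibroblast growth factor receptor and the other measured member of the 14 listed receptor tyrosine kinases, did not pass (log2 fold change 0.15, SE 0.40, edgeR adjusted p = 0.861). Its within-fish ratios lay on both sides of 0, from -1.02 in 11949h to 1.93 in 11949a. STAT4, a cytokine-activated transcription factor, was measured alone of the 28 genes listed for Xmrk signalling. It did not pass (0.43, SE 0.26, edgeR adjusted p = 0.336, and 0.0766 with the block). Melanoma had the higher level in 6 of 7 fish, with 11949h the exception. LDHB_1of2 encodes the heart-type subunit of lactate dehydrogenase and is the single measured gene of 8 listed for glycolysis. After TMM scaling it was lower in the melanoma of 7 of 7 fish (-0.60, SE 0.22) but did not pass in edgeR (adjusted p = 0.0801). In 11949b the log2 ratio was -0.03 only. Before scaling the tumor of 11949b held 6368 of 5822684 counts, a larger share than the 6122 of 6587451 in its skin. The adjusted p of LDHB_1of2 was 0.0379 in DESeq2, the lowest over the alternatives, and 0.202 without the skin of 11949a and the tumor of 11949f, the highest.

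**Figure D3:**
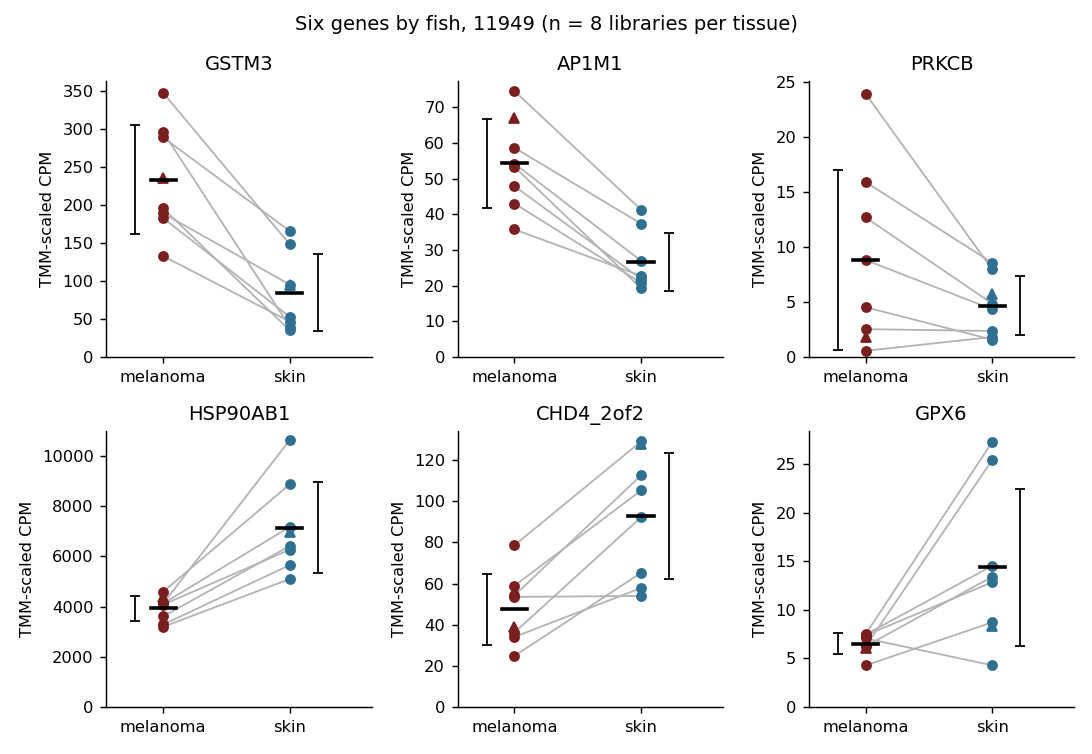
TMM-scaled CPM of 6 genes in melanoma and skin of 11949, with gray lines joining the tissues of a fish, triangles for unpaired libraries, black bars for means and whiskers for 1 SD (n = 8 libraries per tissue). GSTM3 and AP1M1 lines fall toward skin in all 7 fish and HSP90AB1 and CHD4_2of2 lines rise, PRKCB fans out among melanomas, and GPX6 fans out among skins.

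Counts were too low to test 10 more symbols. PMEPA1, an inhibitor of transforming growth factor beta and androgen signalling in mammals, had 95 counts over the 8 melanomas and 20 over the 8 skins. The p38 family gene MAPK11 had 43 and 51, the chemokine receptor copy CCR6_1of2 37 and 18, and the growth factor IGF1 17 and 7. FAM19A3 had 0 counts in both tissues.

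The largest changes were in transcripts without a symbol. They are given by identifier as the file has it, and were taken as the 2 largest rises and 2 largest falls among calls that reached a mean of 50 CPM in the higher tissue and moved the same way in all 7 fish. The size of their folds and the agreement between fish were thus in part given by this choice. ENSXMAT00000004603 had 562, 1597 and 3074 CPM at the lowest, median and highest melanoma, against 0.64, 5.56 and 10.01 CPM in skin (log2 fold change 8.32, SE 0.55, edgeR adjusted p = 1.59e-08). ENSXMAT00000003338 had 3696, 6335 and 18588 CPM, against 5.43, 37.6 and 98.8 CPM in skin (7.60, SE 0.69, edgeR adjusted p = 6.75e-07). Both were far above skin in every melanoma, and for both the lowest skin was that of 11949a. ENSXMAT00000004916 had 10 counts over the 8 melanomas, with 4 of them at 0, against 4400 counts over the 8 skins, at least 22 in each (-8.55, SE 0.94, edgeR adjusted p = 6.10e-06). ENSXMAT00000017075 had 21 counts over the melanomas against 2815 over the skins (-7.51, SE 1.09, edgeR adjusted p = 1.15e-04), of which 1609 were in the skin of 11949a alone. Without that library its log2 fold change was -6.03 (SE 0.75, edgeR adjusted p = 4.76e-05, with a range of 5.48e-17 to 4.35e-04 over all alternatives). Of the 10 melanoma counts of ENSXMAT00000004916, 6 were in the tumor of 11949l, and without it the log2 fold change was -9.59 (SE 0.98).

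Fish of 11949 also differed among themselves across the tissues. In a model with tissue and fish over the 7 pairs, the fish term passed for 8045 of 14371 transcripts (56.0%, edgeR adjusted p below 0.05). Among the 20 tested symbols 3 passed. PRKCB had the largest span of fish means, 3.31 on the log2 scale (edgeR adjusted p = 0.00544). Its low end, 11949c, held 3 counts in melanoma and 8 in skin. CRY2 spanned 1.58 (adjusted p = 0.00750) and CHD4_2of2 1.32 (adjusted p = 0.0257). For CHD4_2of2 the 3 lowest skins were 11949a, 11949b and 11949c, at 54.0 to 65.2 CPM, while the other 5 had 92.2 to 129 CPM. Xmrk did not pass the fish test (span 1.05, adjusted p = 0.336), and HSP90AB1 did not either (span 0.72, adjusted p = 0.509). Of the 4 identifiers, ENSXMAT00000017075 passed (span 3.504, adjusted p = 0.0278). Its melanomas held at most 4 counts each and its skins 30 to 1609, so this span came mainly from the skins.

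Variation between libraries of a tissue was of similar size in melanoma and in skin. The median SD of log2 CPM over the 8 libraries was 0.68 in melanoma and 0.71 in skin, and the SD was larger in melanoma for 6410 of 14313 transcripts (44.8%). Among the 973 that fell in melanoma it was larger there for 36.3%, and among the 849 that rose for 51.4%. The log2 values carry a prior count of 2, which narrows the spread where counts are few. A call is also more likely where the spread within a tissue is small. The part of either in these shares was not tested. Of the symbols that fell, GPX6 had an SD of log2 CPM of 0.25 in melanoma and 0.85 in skin. For HSP90AB1 the SD was 0.19 in melanoma and 0.34 in skin, and for CHD4_2of2 it was 0.53 in melanoma and 0.51 in skin.

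Whether the difference recurred in other animals was read from the 7 fish of other title numbers that have both tissues. None of them enters the fits above, though the CPM and within-fish ratios of 11949 share 1 TMM scaling with them. In these 14 libraries 887 of 14527 transcripts passed in edgeR without a block (6.11%), 426 higher and 461 lower in melanoma. Over the 14002 transcripts tested in both sets of fish, 737 passed in both with the same sign, which is 41.6% of the 1772 calls of 11949 and 86.6% of the 851 calls of the other fish, and 0 passed in both with opposite signs. The fitted change had the same sign for 99.5% of the 11949 calls and for 81.8% of all transcripts. With the fish as a block in both fits, 2623 passed in both, 67.6% of the 11949 calls and 69.2% of the others. The 6 symbols called in 11949 had the same sign in the other fish. There Xmrk averaged 449 CPM in melanoma and 77.1 CPM in skin (log2 fold change 2.59, SE 0.40, edgeR adjusted p = 0.00106). GSTM3 averaged 322 CPM in melanoma and 77.3 CPM in skin there (2.12, SE 0.53, edgeR adjusted p = 0.0237). HSP90AB1 (-0.60, SE 0.19), GPX6 (-1.09, SE 0.35), CHD4_2of2 (-0.61, SE 0.31) and AP1M1 (0.52, SE 0.38) did not pass there without a block and did pass with it. The identifiers chosen for large folds in 11949 all passed there in edgeR, each with a smaller fold than in 11949. Their log2 fold changes were 6.65 for ENSXMAT00000004603, 6.19 for ENSXMAT00000003338, -7.09 for ENSXMAT00000004916 and -4.57 for ENSXMAT00000017075.

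**Figure D4:**
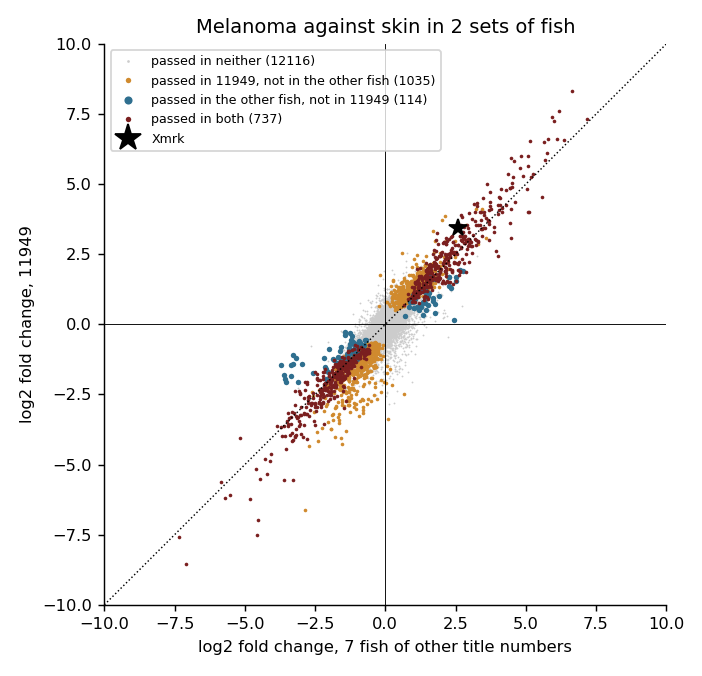
Fitted log2 fold change of melanoma over skin in 11949 (vertical axis) against that in 7 fish of other title numbers (horizontal axis), 1 point per transcript and colored by the set in which it passed an adjusted p of 0.05. The 737 transcripts that passed in both lie along the diagonal and none lies in the opposite quadrants. Xmrk lies above the diagonal.

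A difference in size between the 2 sets of fish was tested directly. The mean within-fish log2 ratio of Xmrk was 3.36 ± 0.81 in 11949 and 2.43 ± 1.18 in the other fish (SD, n = 7 each), a difference of 0.93 that did not pass a two-sided exact permutation test (p = 0.113, where 5.83e-04 is the smallest this design allows). Over all 15619 transcripts the interaction of tissue with title number passed for 0 in edgeR without a block, where 97 had an unadjusted p below 0.05 and DESeq2 called 0. With the fish as a block it also passed for 0 (0%), with 566 at an unadjusted p below 0.05 and a smallest adjusted p of 0.0731. By chance alone 781 would be below 0.05, more than in either fit. The fits without a block leave out the pairing by fish, so their 0 calls carry little weight. For Xmrk the blocked interaction was 0.92 (SE 0.50). Among the symbols PRKCB had the lowest unadjusted interaction p with the block, 0.0409 (difference 0.84, SE 0.38). No difference particular to 11949 was thus detected, which does not show that the 2 sets responded alike.

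The lists of transcripts called in the other fish were then read in each fish of 11949. Of the 426 higher and 461 lower calls, the 420 and 431 with enough counts for a test in 11949 were kept. The values of 11949 had no other part in the choice. Over the 420 transcripts higher in melanoma of the other fish, the median log2 ratio of melanoma over skin was lowest in 11949f at 1.55 and highest in 11949b at 2.29. Over the 431 lower ones it ran from -2.06 in 11949c to -1.20 in 11949b. The median over all tested transcripts stayed between -0.07 and 0.06 in each fish, which was largely given by the TMM scaling. All 7 fish thus moved in the direction of both lists, to different extents. In 11949a 87.7% of the lower list was below its skin, against 94.0% to 99.8% in the other fish, and 97.4% to 99.8% of the higher list was above skin in every fish. The higher list held 4.25% to 10.8% of all counts in the melanomas and 0.72% to 1.25% in the skins. The lower list held 3.45% to 6.12% in the melanomas and 7.58% to 14.01% in the skins, so the tissues overlapped in neither share.

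No relation was detected between a fish's Xmrk ratio and how far its melanoma departed from its skin by these lists. Across the 7 fish, the Xmrk log2 ratio and the median of the higher list had a Pearson r of 0.20 (exact permutation p = 0.662) and a Spearman rho of -0.14 (exact permutation p = 0.783). For the lower list r was 0.07 (exact permutation p = 0.889) and rho -0.18 (exact permutation p = 0.713). The medians of the lower list are negative, so a positive value there means a smaller fall at a higher Xmrk ratio. Xmrk in skin and Xmrk in melanoma of the same fish had r = 0.06 (exact permutation p = 0.877) and rho = 0.29 (exact permutation p = 0.556). All 3 relations tested had a Benjamini-Hochberg adjusted p of 0.889 for r and 0.783 for rho by the exact permutation test. Without the 2 fish farthest from the median on the first measure, r was 0.26 for the higher list and 0.70 for the lower list. For Xmrk in skin and in melanoma it was 0.41. With 7 fish only strong relations could be detected.

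**Figure D5:**
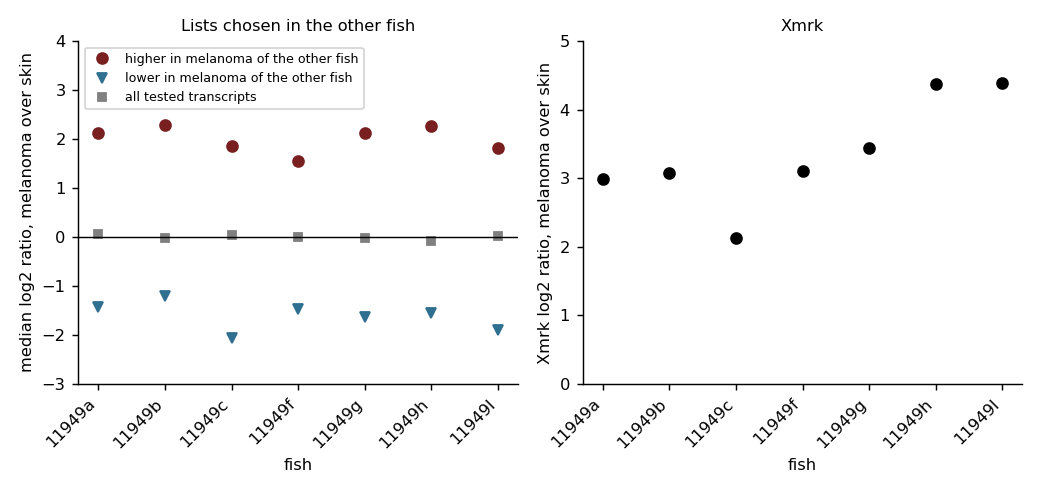
Left, median log2 ratio of melanoma over skin in each fish of 11949 for the 420 transcripts higher and the 431 lower in melanoma of the other fish, and for all tested transcripts. Right, the log2 ratio of Xmrk in the same fish. The 2 lists lie on opposite sides of 0 in all 7 fish, and 11949h and 11949l, with the highest Xmrk ratios, do not stand apart on the left.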

How the data were processed

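The values deposited by the authors are raw counts in 1 table, with 32 libraries as columns and transcript models as lines. The submitters' processing notes name GSNAP as a tool, with its version, the genome build, annotation and counting program not given in the sources used here. RNA was column-purified from frozen tissue homogenised in TRI Reagent, per the labels' protocols.

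Columns were matched by title. Fits used edgeR 4.0.16 in R 4.3.3: TMM scaling, filterByExpr, quasi-likelihood F-test, Benjamini-Hochberg adjustment over all transcripts tested, threshold 0.05, no block. CPM and within-fish ratios (log2, prior count 2) used 1 TMM scaling over the 16 libraries of 11949 and the 14 of the other paired fish, leaving out 1 skin without a partner and 1 tumor column that matched no title. The tissue and interaction fits were tested on simulated data. There a limit on the share of false calls was set only for the fits with the fish as a block. Figures used matplotlib 3.10.9.

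The titles give the pairing by fish: deviations from the tissue mean correlated at r = 0.423 to 0.758 within a fish and -0.351 to 0.219 between fish, across transcripts. No library repeated another (lowest chi-square per degree of freedom 33.6 over 56 pairs). Replicates are different fish.

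The members and lists were chosen with earlier results of these data known. Named genes are all tested rows with a symbol and 4 identifiers taken by the fold rule given above. Of 21 gene lists, 8 had a tested symbol. The other 13, among them pigment cell, keratinocyte, immune and cell cycle genes, matched none. Alternatives were RLE scaling, DESeq2 1.42.0, other filters, removal of the 10 most abundant transcripts, the fish as a block, a test against a 2-fold change, a prior count of 0.5 and leaving out single libraries or fish. Omission of the skin of 11949a and the tumor of 11949f together, or of both fish, was added after the data were seen.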

Additional observations from a re-analysis of the deposited data

Results flagged for a closer look

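Libraries or fish that stood apart from the rest of their group were searched for in 76 groups of 7 or 8 values. There were 14, where about 3.8 would be due to chance if the groups were independent and normally distributed. They are not independent, since levels and ratios come from the same libraries. In depth, 11949f had the shallowest tumor at 2578877 counts, followed by one at 4938279. Among skins, that of 11949a stood apart with 513 CPM of CSNK1A1 (next 333), 2463 CPM of LDHB_1of2 (next 1592), 14.1 CPM of OXR1 (next 31.0) and 514 CPM of ENSXMAT00000017075 (next 89.5). The skin of 11949h stood apart with 11.5 CPM of STAT4 (next 6.66).

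Among melanomas, that of 11949c stood apart with 247 CPM of CALR3_1of2 (next 175) and 10.7 CPM of PRKCE_1of2 (next 21.5). The melanoma of 11949h had 4.27 CPM of GPX6 (next 6.09), and that of 11949l had 1.29 CPM of ENSXMAT00000004916 (next 0.388), from 6 counts.

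Within-fish log2 ratios of melanoma over skin stood apart in 11949a for CSNK1A1 (-0.75, next 0.06), NR2F6_1of2 (2.21, next 0.23) and OXR1 (1.79, next 0.60), and in 11949h for STAT4 (-0.43, next 0.37). The NR2F6_1of2 ratio rests on 5 counts in the skin of 11949a. Of the 14, 7 belong to fish 11949a, whose skin also had the lowest total count of its tissue, 4239036. Among these, CSNK1A1 and OXR1 each count by skin level and again by ratio. The part of depth or of TMM scaling in these values was not tested. Before scaling the shares of CSNK1A1 in 11949a were near each other, 2149 of 5813901 counts in melanoma and 1605 of 4239036 in skin.

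The tumor column that matched no title, and entered no comparison, had 421 CPM of Xmrk, above the highest of all skin libraries of the study at 114 CPM. In 24 comparisons of direction between 11949 and the other fish, 0 had every fish of one set moving against every fish of the other.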

How the results depend on the processing

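The count of calls in 11949 was 1822 as reported and 3982 with the fish as a replicate block in 7 pairs, against 1272 in those 14 libraries without it. Testing against a 2-fold change left 453 (274 higher, 179 lower) by its stricter null. RLE scaling, the other filters, DESeq2 (2426), removal of abundant transcripts and leaving out any 1 library (1497 to 1926) stayed within 1.5 times, as did omission of the skin of 11949a with the tumor of 11949f (1804). In the other fish the count was 887 as reported, 3897 with the block and 1371 with DESeq2. The calls shared by both sets numbered 737 as reported, 2623 with the block and 1117 with DESeq2. The cause of the DESeq2 counts was not tested. The medians of the 2 lists over fish, 2.13 and -1.55 on the log2 scale by the lists of the unblocked fit, were 0.91 and -0.84 with the longer lists of the blocked fit, 1778 and 2013 transcripts. The interaction gave 0 under all 5 alternatives, though those without the block leave out the pairing by fish.

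Xmrk, GSTM3, AP1M1 and HSP90AB1 passed under all 24 alternatives, CHD4_2of2 under 23 and GPX6 under 19. The 4 identifiers also passed under all 24. They were chosen for large folds in these same libraries, so this was largely given by the choice. Against the 16 libraries of 11949 without a block, the block changed no call on a gene with a symbol, while in the 14 paired libraries CHD4_2of2 passed with the block and not without it. In the other fish HSP90AB1, GPX6, CHD4_2of2 and AP1M1 passed with it and not without it. Estimates near 0 changed sign: NR2F6_1of2 was 0.0013 without a filter, 0.011 without abundant transcripts, 0.12 with the block, 0.029 in the paired libraries and -0.16 to 0.045 on leaving out single libraries, and PRKCE_1of2 was -0.10 to 0.077 on leaving out single libraries.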
